A study of Homo sapiens with 6 samples.

Results

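The uroplakins and 5 transcription factors of the urothelium were followed in 2 established lines of human bladder cancer, UM-UC-3 and 5637. The genes were taken by name, and all 10 (UPK1A, UPK1B, UPK2, UPK3A, UPK3B, GATA3, FOXA1, PPARG, ELF3 and KLF5) were found among 50868 rows with values. Either line carried a stably integrated lentiviral construct under puromycin selection, which was a control hairpin (sh-NC) or 1 of 2 hairpins against the long noncoding RNA LNMAT1 (sh-LNMAT1#1, also called the first hairpin, and sh-LNMAT1#2, the second). UM-UC-3 was grown in DMEM and 5637 in RPMI 1640. Polyadenylated RNA was sequenced in 6 libraries, 1 for each construct in each line, and the values are FPKM, fragments per kilobase of the gene and scaled to the number of fragments in the library. A hairpin and its control therefore form a pair of single libraries without a replicate check, and nothing states that the libraries came from separate cultures. The 2 sh-LNMAT1 libraries of a line were used as replicates of the line, although they carry different hairpins.

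Uroplakins are membrane proteins of the urothelium that assemble into rigid plaques on the face of the umbrella cells. UPK1A and UPK1B are tetraspanins that pair with UPK2 and with a UPK3 protein before the complex leaves the endoplasmic reticulum. GATA3, FOXA1, the nuclear receptor PPARG, the ETS factor ELF3 and the zinc finger factor KLF5 are transcription factors of urothelial cells, and GATA3, FOXA1 and PPARG are widely used to describe luminal bladder tumors.

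Before the results, the library labelled 5637 sh-NC has to be set apart. Over 12717 genes its log2 values correlated with those of the UM-UC-3 libraries at r = 0.922 to 0.985 and with those of the 5637 sh-LNMAT1 libraries at r = 0.617 to 0.622, as a description across genes. Of the 10 genes, 8 were above 0 in that library, and 6 of the 8 lay within the range of the 3 UM-UC-3 libraries while 0 lay within the range of the 5637 sh-LNMAT1 libraries. The exceptions were UPK1A, at 0.293 FPKM against a lowest UM-UC-3 value of 0.338 FPKM, and FOXA1, at 0.505 FPKM against a highest of 0.501 FPKM. Of 185 genes that had 5 FPKM or more with each hairpin in 5637 but stayed below 0.1 FPKM throughout UM-UC-3, 1 reached 1 FPKM in it, the uroplakin-like gene UPK3BL. It is called the library labelled 5637 sh-NC below, the lines were compared without it, and each result that uses it is given with that limit. LNMAT1, listed as LINC01296, was at 14.2, 6.20 and 6.70 FPKM in UM-UC-3 with the control, the first and the second hairpin. It was at 11.7 FPKM in the library labelled 5637 sh-NC. Levels of 4.70 and 2.14 FPKM were found in 5637 with sh-LNMAT1#1 and sh-LNMAT1#2.

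The FPKM values could be turned back into whole fragments, from 19374806 to 24706821 fragments a library. A level can therefore be read with its fragments, and 95% exact Poisson intervals of a level and exact binomial (Clopper-Pearson) intervals of a ratio are given, which cover counting error only. In the files the 5 uroplakins lie on GRCh38 chromosome 19 from 35666516 to 35678483 (UPK1A, ENSG00000105668), chromosome 3 from 119173517 to 119205153 (UPK1B, ENSG00000114638), chromosome 11 from 118925164 to 118958559 (UPK2, ENSG00000110375), chromosome 22 from 45284982 to 45295874 (UPK3A, ENSG00000100373) and chromosome 7 from 76510428 to 76516521 (UPK3B, ENSG00000243566). The factors lie on chromosome 10 from 8053604 to 8075198 (GATA3, ENSG00000107485), chromosome 14 from 37589984 to 37596059 (FOXA1, ENSG00000129514), chromosome 3 from 12287368 to 12434356 (PPARG, ENSG00000132170), chromosome 1 from 202007945 to 202017188 (ELF3, ENSG00000163435) and chromosome 13 from 73054976 to 73077542 (KLF5, ENSG00000102554). The FOXA1 gene is on the minus strand and the others are on the plus strand.

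Promoter sequence was available for 8 of the 10 genes in RefSeq (GRCh38.p14), in 19 windows of 250 bases before an annotated start. UPK2 and UPK3A have none in the table used here. The 4 windows below are shown because their genes followed different courses in the libraries, UPK1A lower in 5637, PPARG changed in UM-UC-3, and GATA3 and KLF5 higher in 5637, and because they are the first windows of genes that overlap the exons of their own gene by at most 1 base. They are chr19:35666267-35666516 (UPK1A), chr10:8045083-8045332 (GATA3, an upstream start), chr3:12287118-12287367 (PPARG) and chr13:73054726-73054975 (KLF5), all on the plus strand. GATA3, PPARG and KLF5 have further windows at later starts. The later window of KLF5 (73058755 to 73059004) holds GC boxes and CCAAT and no TATAAA. The GATA3 window lies well before the gene as placed in the files, which starts at 8053604. Capitals mark TATAAA and an ETS match (CTTCCTG, the reverse complement of CAGGAAG) in UPK1A, a forkhead match (TGTTTGC) and 2 ETS matches (CCGGAAG and CAGGAAG) in GATA3, 2 nuclear receptor half-sites (AGGTCA) in PPARG and TATAAA in KLF5.
UPK1A: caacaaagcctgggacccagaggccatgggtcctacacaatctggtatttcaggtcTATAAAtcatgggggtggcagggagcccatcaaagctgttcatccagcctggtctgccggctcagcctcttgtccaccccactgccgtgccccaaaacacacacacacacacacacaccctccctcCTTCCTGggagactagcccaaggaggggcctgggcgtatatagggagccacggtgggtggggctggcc
GATA3: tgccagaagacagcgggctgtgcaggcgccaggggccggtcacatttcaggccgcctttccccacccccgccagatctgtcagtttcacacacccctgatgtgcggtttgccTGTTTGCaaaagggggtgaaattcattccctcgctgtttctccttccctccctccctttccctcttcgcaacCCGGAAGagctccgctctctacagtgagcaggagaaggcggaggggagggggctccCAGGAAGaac
PPARG: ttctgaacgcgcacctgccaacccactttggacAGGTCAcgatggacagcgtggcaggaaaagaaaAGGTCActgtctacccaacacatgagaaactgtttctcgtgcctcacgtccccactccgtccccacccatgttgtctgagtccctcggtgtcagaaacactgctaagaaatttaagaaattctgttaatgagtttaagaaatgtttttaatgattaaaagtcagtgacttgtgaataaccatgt
KLF5: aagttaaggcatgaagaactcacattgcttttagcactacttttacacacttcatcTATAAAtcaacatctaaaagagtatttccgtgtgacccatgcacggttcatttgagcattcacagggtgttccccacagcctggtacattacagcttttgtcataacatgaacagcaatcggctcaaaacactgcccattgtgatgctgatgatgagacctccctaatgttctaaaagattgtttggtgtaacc

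Both strands were searched for 7 short motifs, and the letters were AGATAA or TGATAA for GATA factors, TGTTTAC or TGTTTGC for FOXA factors, CAGGAAG or CCGGAAG for ETS factors, AGGTCA for the half-site, GGGCGG for the GC box, TATAAA for the TATA box and CCAAT. None of these words is contained in another on either strand. Of the 19 windows, 2 held a GATA match (14.6% of 35116 windows of the same length over the genome did), 2 a FOXA match (6.09%), 2 an ETS match (18.2%) and 3 a half-site (12.1%). The GC box was in 7 windows (42.6%), TATAAA in 6 (10.7%) and CCAAT in 7 (32.0%). The 3 windows with a half-site are all of PPARG, and 2 of them overlap in all but a few bases, so that they hold the same match. A match describes letters and is not a binding site.

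Among the uroplakins, UPK3B was the 1 gene above 1 FPKM in any library. UPK3B encodes a UPK3 protein that is also known from mesothelium. It was listed at 0 in UM-UC-3 sh-NC, at 0.0322 FPKM with sh-LNMAT1#1 (3 fragments) and at 0 with sh-LNMAT1#2. In 5637 it was 2.63 FPKM with sh-LNMAT1#1 (229 fragments; 95% interval 2.30 to 2.995) and 1.91 FPKM with sh-LNMAT1#2 (155 fragments; 1.62 to 2.24). Both 5637 sh-LNMAT1 libraries lay above all 3 UM-UC-3 libraries, and the library labelled 5637 sh-NC, at 0.0213 FPKM (2 fragments), lay among the latter. Set against UM-UC-3 with the same hairpin, UPK3B was 81.75 times as high with sh-LNMAT1#1 (27.6 to 399.3). With sh-LNMAT1#2 UM-UC-3 had 0 fragments, and the lower limit of the 95% interval of the ratio was 49.2. Within 5637, UPK3B with sh-LNMAT1#2 was 0.727 times its level with sh-LNMAT1#1 (0.589 to 0.895).

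UPK2, which encodes a partner of the tetraspanins and is used as a marker of urothelial origin, was low in both lines. It had 5, 1 and 1 fragments in UM-UC-3 with the control, the first and the second hairpin (0.121, 0.0269 and 0.0261 FPKM), 2 fragments in the library labelled 5637 sh-NC (0.0534 FPKM) and 14 and 18 fragments in 5637 with sh-LNMAT1#1 and sh-LNMAT1#2 (0.403 and 0.556 FPKM). The 5637 sh-LNMAT1 libraries again lay above the others, and with sh-LNMAT1#1 the ratio of 5637 to UM-UC-3 was 15.0 with a counting interval of 2.28 to 634.0.

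UPK1A ran in the other direction. It had 18, 16 and 20 fragments in UM-UC-3 with the control, the first and the second hairpin, at 0.343, 0.338 and 0.410 FPKM, 14 in the library labelled 5637 sh-NC at 0.293 FPKM, 0 in 5637 sh-LNMAT1#1 and 2 in 5637 sh-LNMAT1#2 at 0.0485 FPKM. The count of 0 allows up to 0.0678 FPKM at a floor of 3 fragments. The ratio of 5637 to UM-UC-3 with sh-LNMAT1#2 was 0.118 (0.0134 to 0.488). The antisense gene UPK1A-AS1 lies across UPK1A, on chromosome 19 from 35667948 to 35673291, and had 12, 7 and 7 fragments in the UM-UC-3 libraries in that order, 2 in the library labelled 5637 sh-NC and 0 in both 5637 sh-LNMAT1 libraries. The kit keeps the strand, but whether the counting used it is not stated, so the sense and antisense reads may not be told apart.

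UPK1B, the other tetraspanin, was listed at 0 in all 6 libraries, which allows up to 0.0285 to 0.0364 FPKM. UPK3A, the UPK3 protein of the umbrella cell plaque, had 0 fragments in 5 libraries and 1 in 5637 sh-LNMAT1#2 (0.0371 FPKM). At this depth no library therefore held detectable UPK1B, and UPK3A was at most at 1 fragment.

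**Figure D1:**
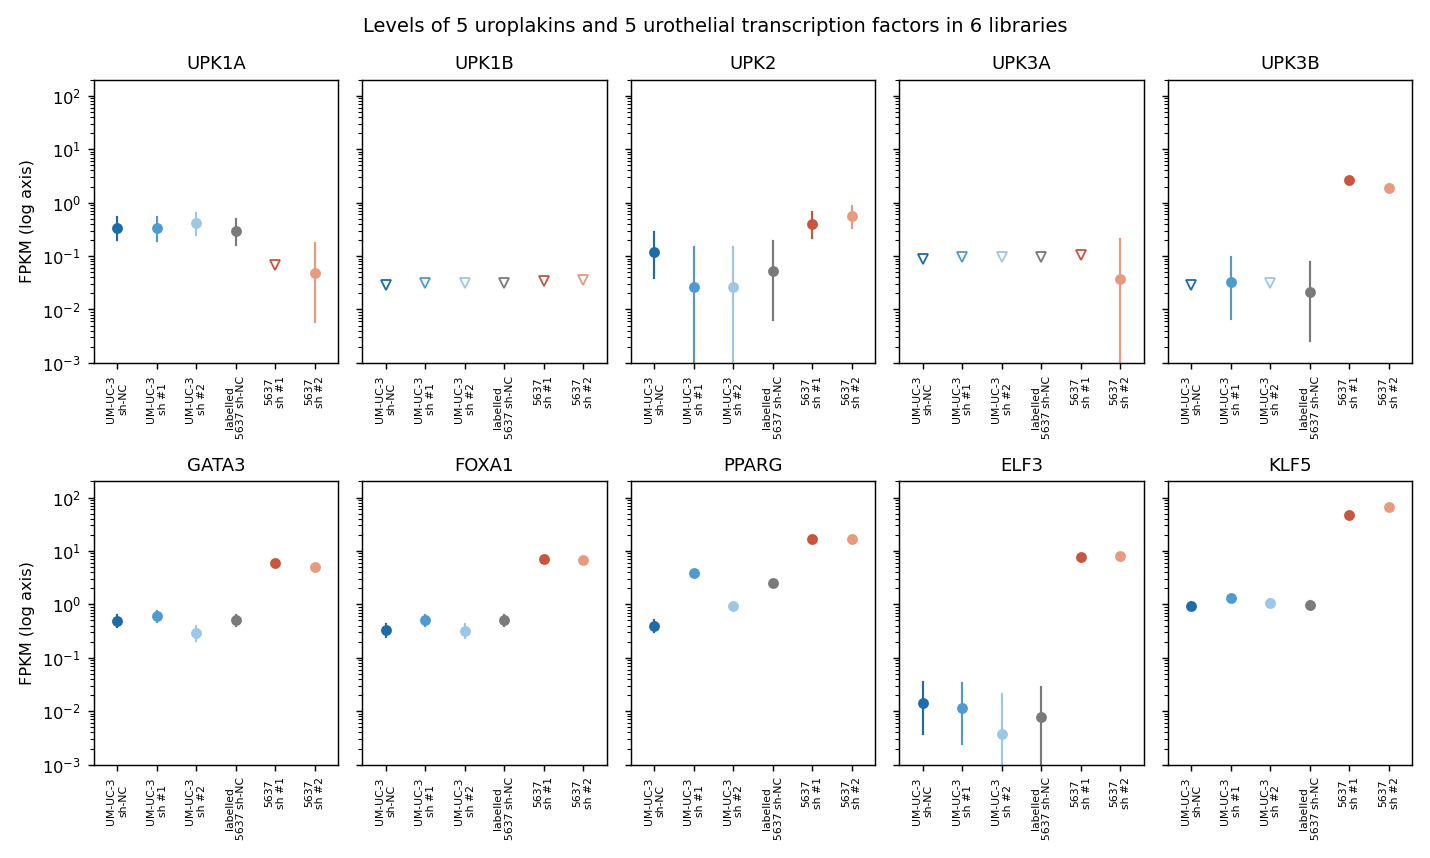
FPKM of the 10 genes in each library on a log axis, with points for the values, lines for 95% Poisson intervals of the fragments (cut at the lower edge of the axis) and open triangles at the level of 3 fragments where a library had 0. UPK3B, GATA3, FOXA1, PPARG, ELF3 and KLF5 are highest in 5637 sh-LNMAT1#1 and sh-LNMAT1#2, UPK1A is lowest there, and UPK1B has 0 fragments throughout.

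All 5 transcription factors were higher in the 5637 sh-LNMAT1 libraries than in every other library. This count is no measure of the set, since 20.1% of all genes tested were called higher in 5637 in the comparison of the lines below. KLF5, a factor of proliferating epithelium, was 0.945, 1.32 and 1.07 FPKM in UM-UC-3 with the control, the first and the second hairpin (170, 214 and 179 fragments), and the library labelled 5637 sh-NC had 0.979 FPKM (160 fragments). In 5637 the first hairpin gave 46.4 FPKM and the second 67.7 FPKM (7027 and 9544 fragments), a ratio of 1.46 (1.41 to 1.504). The lines did not overlap, and the libraries of 5637 differed beyond counting error.

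ELF3, an ETS factor specific to epithelia, was nearly undetected outside 5637 sh-LNMAT1. It had 4, 3 and 1 fragments in UM-UC-3 with the control, the first and the second hairpin (0.0140, 0.0117 and 0.00377 FPKM) and 2 in the library labelled 5637 sh-NC (0.00772 FPKM). In 5637 it had 1877 fragments with sh-LNMAT1#1 (7.81 FPKM) and 1772 with sh-LNMAT1#2 (7.92 FPKM), levels with a ratio of 1.014 (0.949 to 1.08). With sh-LNMAT1#1 the ratio of 5637 to UM-UC-3 was 670.1 (228.9 to 3252), and with sh-LNMAT1#2, where UM-UC-3 had 1 fragment, it was 2099 with an interval of 376.2 to 82950.

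FOXA1, a pioneer factor of endoderm and hormone-responsive epithelia, was 0.325, 0.501 and 0.322 FPKM in UM-UC-3 with the control, the first and the second hairpin, and 0.505 FPKM in the library labelled 5637 sh-NC. In 5637 its levels were 7.12 and 6.63 FPKM with the first and the second hairpin, and the ratio of the second to the first was 0.930 (0.846 to 1.02). GATA3, the zinc finger factor used as an immunohistochemical marker of urothelial tumors, was 0.493, 0.594 and 0.292 FPKM in UM-UC-3 in the same order and 0.503 FPKM in the library labelled 5637 sh-NC. It was 5.99 FPKM in 5637 sh-LNMAT1#1 and 5.02 FPKM in 5637 sh-LNMAT1#2, 0.838 times as high with the second hairpin (0.748 to 0.938). The lncRNA gene GATA3-AS1, on the opposite strand of chromosome 10 from 8050450 to 8053484, was listed at 0 in the UM-UC-3 libraries and in the library labelled 5637 sh-NC, and was at 0.331 and 0.776 FPKM in 5637 with sh-LNMAT1#1 and sh-LNMAT1#2.

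PPARG was the factor that varied most among the UM-UC-3 libraries. This nuclear receptor pairs with RXR and acts in adipocytes and in urothelial differentiation. It was 0.395 FPKM in the UM-UC-3 control, rose to 3.85 FPKM with sh-LNMAT1#1, stood at 0.939 FPKM with sh-LNMAT1#2 (68, 597 and 150 fragments), and the library labelled 5637 sh-NC had 2.54 FPKM (397 fragments). In 5637 it reached 16.6 and 16.8 FPKM with the first and the second hairpin (2406 and 2266 fragments; ratio 1.011, 0.954 to 1.07). Both 5637 sh-LNMAT1 libraries lay above the UM-UC-3 libraries. The ratio of 5637 to UM-UC-3 was 4.32 with sh-LNMAT1#1 (3.95 to 4.73) and 17.9 with sh-LNMAT1#2 (15.2 to 21.25), so that it depended on the UM-UC-3 hairpin.

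The deposited FPKM divide by the summed length of a gene's distinct exon records, in which overlapping exons count more than once, and this length was 1.322 to 1.878 times the merged exons of the 10 genes. Levels were therefore compared between genes per kilobase of merged exons. On that scale the order in 5637 with sh-LNMAT1#1 and sh-LNMAT1#2 was KLF5 (86.8 and 126.5 FPKM), PPARG (25.5 and 25.8 FPKM), ELF3 (12.55 and 12.7 FPKM), FOXA1 (11.4 and 10.6 FPKM), GATA3 (9.88 and 8.28 FPKM), UPK3B (4.14 and 3.01 FPKM) and UPK2 (0.609 and 0.840 FPKM). The ranges of neighbours in this order did not overlap between the 2 libraries, with no test. In the 3 UM-UC-3 libraries, on the same scale, KLF5 ran from 1.77 to 2.47 FPKM and PPARG from 0.607 to 5.91 FPKM, while the ranges of GATA3 (0.482 to 0.980 FPKM), FOXA1 (0.514 to 0.800 FPKM) and UPK1A (0.526 to 0.638 FPKM) overlapped and gave no order.

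The lines were compared by limma over the 4 sh-LNMAT1 libraries, on log2(FPKM + 0.5) over genes whose mean reached 1 FPKM, with 2 residual degrees of freedom. The contrast asks how far the urothelial program differs between the lines among libraries that all carry a hairpin against LNMAT1. Of the 12844 genes tested, 38.5% were called at a Benjamini-Hochberg adjusted p under 0.05, 20.1% higher and 18.4% lower in 5637. KLF5 was higher in 5637 by 5.06 on the log2 scale (SE 0.26, limma adjusted p 2.25e-04), ELF3 by 4.04 (SE 0.20, adjusted p 2.11e-04) and FOXA1 by 3.02 (SE 0.22, adjusted p 4.89e-04). PPARG was higher by 2.78 (SE 0.52, limma adjusted p 0.0119), GATA3 by 2.68 (SE 0.25, adjusted p 0.00116) and UPK3B by 2.41 (SE 0.23, adjusted p 0.00115). Each was higher in both 5637 libraries than in both UM-UC-3 libraries. All 6 genes that could be tested were called, but UPK3B, GATA3, FOXA1 and ELF3 passed the filter only through their level in 5637, so that this count is no measure of the gene set. UPK1A, UPK1B, UPK2 and UPK3A did not pass it, and their log2 differences were -0.74, 0, 0.89 and 0.05.

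On log2(FPKM + 0.5) the size of the differences placed KLF5 at rank 107 and ELF3 at rank 237 of 12844 genes ordered from the highest in 5637, and FOXA1, PPARG, GATA3 and UPK3B at ranks 489, 573, 618 and 762. The order rests on the pseudocount. With 0.1 the log2 difference was 6.21 for ELF3, 5.44 for KLF5, 4.35 for UPK3B, 3.79 for FOXA1, 3.42 for GATA3 and 3.05 for PPARG, and all 6 stayed called. The call of PPARG was lost without 5637 sh-LNMAT1#1 (adjusted p 0.147) and without 5637 sh-LNMAT1#2 (0.138), with log2 differences of 2.79 and 2.77. Its difference was 3.58 without UM-UC-3 sh-LNMAT1#1 and 1.98 without UM-UC-3 sh-LNMAT1#2. With the library labelled 5637 sh-NC taken as 5637 and both control libraries added, KLF5 differed by 3.39, ELF3 by 2.69, PPARG by 2.44, FOXA1 by 2.11 and GATA3 by 1.79, each at an adjusted p from limma of 0.335, and 0 of the 10 genes were called.

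**Figure D2:**
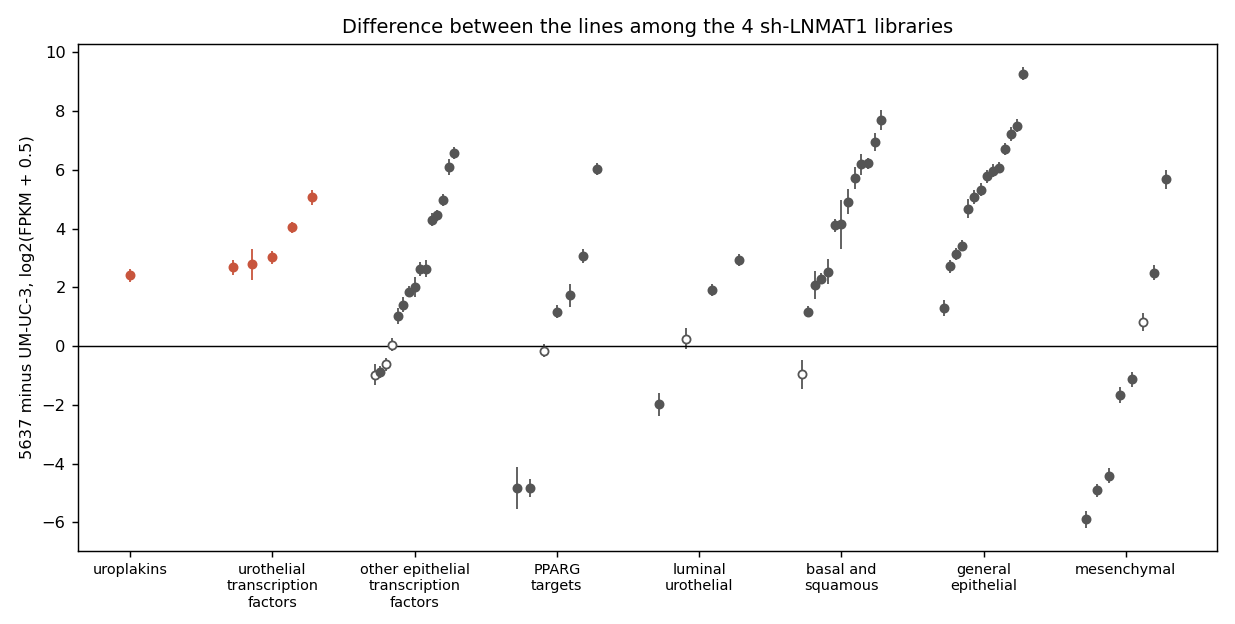
Difference of 5637 minus UM-UC-3 in log2(FPKM + 0.5) among the 4 sh-LNMAT1 libraries, 1 point a gene with its limma standard error, filled where the adjusted p was under 0.05, for the tested genes of each list. UPK3B and the 5 factors (red) lie between 2.41 and 5.06, the general epithelial genes reach 9.27, and the PPARG targets and mesenchymal genes lie on both sides of 0.

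The other genes of the program were read from lists, by their counts and medians beside a median of -0.016 and 20.1% higher over all genes tested. Many of these genes passed the filter only through their level in 1 line, which sets their direction, so the counts and medians describe the tested genes and do not measure the lists. In 5637 alone this held for 9 of the 15 other epithelial factors, 2 of the 7 PPARG targets, 1 of the 4 luminal, 8 of the 13 basal and squamous and 12 of the 14 general epithelial genes tested. In UM-UC-3 alone it held for 2 of the 7 PPARG targets and 3 of the 8 mesenchymal genes. In bulk RNA, fewer cells of a type and less RNA per cell cannot be told apart. Of 16 other epithelial transcription factors, 15 were tested, 11 were higher in 5637 and 1 was lower, with a median log2 difference of 2.01. Among the larger differences were those of EHF, an ETS factor related to ELF3 (0.0205 and 0.0348 FPKM in UM-UC-3 with sh-LNMAT1#1 and sh-LNMAT1#2, 28.5 and 43.8 FPKM in 5637; log2 difference 6.09), of GRHL2, a grainyhead factor of epithelial junction genes (4.97), and of TFAP2C (4.45). KLF4 was the 1 called lower, by a log2 difference of -0.89.

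Of 12 target genes of PPARG, 7 were tested, 4 were higher and 2 lower in 5637, with a median of 1.179. FABP4, a fatty acid binding protein of adipocytes, was 0.0182 and 0 FPKM in UM-UC-3 and 34.1 and 31.3 FPKM in 5637 with sh-LNMAT1#1 and sh-LNMAT1#2 (log2 difference 6.03). ACSL5, an acyl-CoA synthetase, was higher by 3.07. ANGPTL4, a secreted inhibitor of lipoprotein lipase, and CPT1A, the carnitine palmitoyltransferase of fatty acid oxidation, were lower, by log2 differences of -4.84 and -4.83. ANGPTL4 was 36.2 and 7.23 FPKM in UM-UC-3 against 0.0541 and 0.129 FPKM in 5637.

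Of 16 genes of luminal urothelium, 4 passed the filter, and 2 were higher and 1 lower in 5637. ERBB3 (2.93) and ERBB2 (1.90), receptors of the EGF receptor family, were higher, and the cyclin gene CCND1 was lower (-1.98). TMPRSS2 did not pass the filter, and KRT20, the keratin of umbrella cells, was at most 0.0505 FPKM in any library. Of 15 genes of the basal and squamous layer, 13 were tested and 12 were higher in 5637 (median 4.15), led by the keratins KRT5 (7.71), KRT17 (6.93) and KRT6A (6.18) and the cadherin CDH3 (6.22). Thus in the sh-LNMAT1 libraries GATA3, FOXA1 and PPARG were higher in the same line as the basal keratins.

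Of 15 general epithelial genes, 14 were tested and 14 were higher in 5637, with a median of 5.55, and KRT19 (9.27), MAL2 (7.51), KRT7 (7.22) and ST14 (6.71) led them. Their summed level was 21.7 to 31.1 FPKM in the UM-UC-3 libraries, 27.2 FPKM in the library labelled 5637 sh-NC, against 864.5 to 1050 FPKM in the 5637 sh-LNMAT1 libraries. Of 10 mesenchymal genes, 8 were tested, 5 were lower in 5637 and 2 were higher (median -1.40), and their sums were 190.9 to 403.9, 170.9 and 135.5 to 136.8 FPKM. SPARC (-5.89), VIM (-4.90) and ZEB1 (-4.41), a repressor of epithelial genes, were lower and FN1 (5.67) was higher. The mesenchymal sums too were mostly 1 gene. VIM was 115.8 to 331.9 FPKM in UM-UC-3 and 103.2 FPKM in the library labelled 5637 sh-NC. FN1 was 109.6 and 102.4 FPKM in 5637 with sh-LNMAT1#1 and sh-LNMAT1#2. Markers of fibroblasts and leukocytes summed to 13.3 to 29.5 FPKM in UM-UC-3, 31.2 FPKM in the library labelled 5637 sh-NC, with 7.73 to 9.38 FPKM in 5637 sh-LNMAT1. Each sum was mostly 1 gene and does not measure these cell types. CD68 was 13.0 to 29.2 FPKM in UM-UC-3 and 31.0 FPKM in the library labelled 5637 sh-NC. COL1A1 was 7.92 and 6.37 FPKM in 5637 with sh-LNMAT1#1 and sh-LNMAT1#2. Of these 10 markers 2 passed the filter, CD68 (-3.96) and COL1A1 (3.47), and CD14 and LUM stayed under 1 FPKM in every library. Of the defining markers, CD3E was at 0 in all 6 libraries, and DCN, PTPRC, COL1A2 and COL3A1 were at most 0.0262 FPKM. The part of these lists in the differences of the uroplakins and factors was not tested.

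Against its own control, UM-UC-3 held only PPARG and KLF5 above the filter, and neither was at least 2-fold different with both hairpins on log2(FPKM + 0.5). Of 12025 genes kept, both hairpins raised 1.08% and lowered 0.358% by 2-fold or more. PPARG rose above 2-fold with sh-LNMAT1#1, by a log2 difference of 2.28, as did 5.55% of genes, and stood at rank 40 of 12025. With sh-LNMAT1#2, which raised 2.1% of genes by 2-fold or more, its log2 difference was 0.68, at rank 700. PPARG was under 1 FPKM with sh-NC and sh-LNMAT1#2 (0.395 and 0.939 FPKM) and passed the filter only through sh-LNMAT1#1. Its high value there selected it, so the ranks and shares do not measure its rise. In fragments, which need no pseudocount, the ratio to sh-NC was 9.74 with sh-LNMAT1#1 (7.57 to 12.7) and 2.375 with sh-LNMAT1#2 (1.77 to 3.21), and the first hairpin gave 4.10 times the level of the second (3.42 to 4.94). Both ratios lay above 1 beyond counting error, and only the first lay above 2 by its whole interval. The intervals compare libraries and do not include the spread between cultures.

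The other genes differed less. KLF5 had a ratio to sh-NC of 1.40 with sh-LNMAT1#1 (1.14 to 1.72) and 1.13 with sh-LNMAT1#2 (0.914 to 1.41). FOXA1 had 1.54 (1.06 to 2.26) and 0.992 (0.653 to 1.504), and GATA3 had 1.205 (0.858 to 1.70) and 0.593 (0.388 to 0.894). GATA3 and FOXA1 thus differed from sh-NC beyond counting error with 1 hairpin each, in opposite directions. UPK1A had ratios of 0.986 (0.470 to 2.05) and 1.196 (0.601 to 2.40), intervals that hold 1 and a 2-fold change. Fragments of ELF3, UPK2 and UPK3B in UM-UC-3, at most 5 a library, were too few to read a ratio from.

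**Figure D3:**
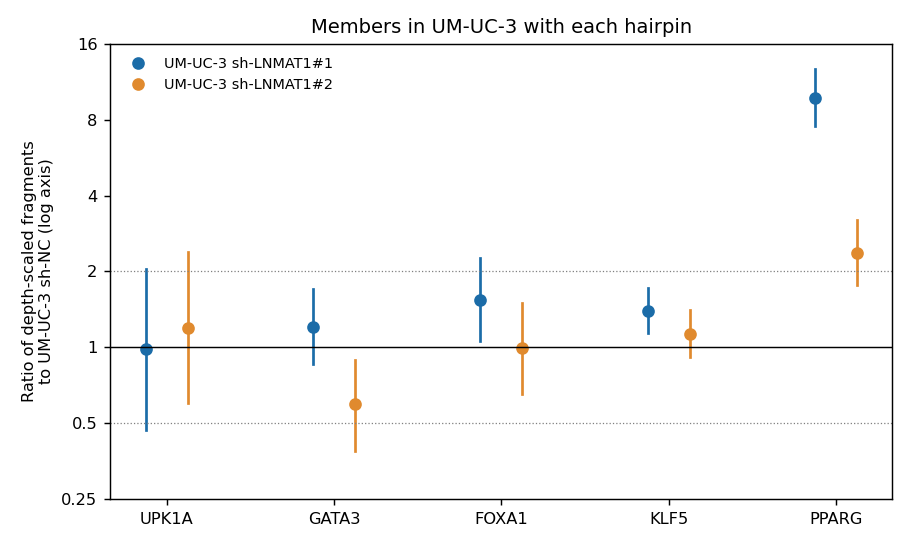
Ratio of depth-scaled fragments in each UM-UC-3 sh-LNMAT1 library to UM-UC-3 sh-NC on a log axis, with lines for 95% Clopper-Pearson counting intervals and dotted lines at 0.5 and 2. PPARG stands at 9.74 and 2.375, and the other genes lie between 0.593 and 1.54.

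Of the PPARG targets, 5 passed the filter in UM-UC-3. On log2(FPKM + 0.5), 1 of them, ANGPTL4, was at least 2-fold higher with sh-LNMAT1#1 and none with sh-LNMAT1#2. PLIN2 lay just under that threshold with sh-LNMAT1#1, at 5.79 FPKM with sh-NC, 12.1 FPKM with the first hairpin and 5.23 FPKM with the second (log2 differences 0.999 and -0.135). ANGPTL4 was 13.2 FPKM with sh-NC, 36.2 FPKM with the first hairpin and 7.23 FPKM with the second (log2 differences 1.42 and -0.83), and CPT1A was 17.9, 32.6 and 26.2 FPKM (0.85 and 0.54). The median log2 difference of the 5 was 0.851 and 0.020, beside -0.004 and 0.017 over all genes kept. FABP4 stayed at or under 0.0182 FPKM in the 3 libraries.

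In 5637 the comparison with the control rests on the library labelled 5637 sh-NC. Of 12791 genes, 18.5% lay 2-fold or more above it and 12.3% as far below it with each of the hairpins, and UPK3B, GATA3, FOXA1, PPARG, ELF3 and KLF5 were among the former. Except for PPARG, these were under 1 FPKM in that library and passed the filter only through 5637 sh-LNMAT1. This set their direction, so the count is no measure of the set. The log2 differences with sh-LNMAT1#1 and sh-LNMAT1#2 were 2.59 and 2.21 for UPK3B, 2.69 and 2.46 for GATA3, 2.92 and 2.83 for FOXA1, 2.49 and 2.51 for PPARG, 4.03 and 4.05 for ELF3, and 4.99 and 5.53 for KLF5. These sizes depend on the pseudocount where a level is near 0, and with 0.1 in place of 0.5 they were 4.49 and 4.05 for UPK3B and 6.20 and 6.22 for ELF3. In fragments the ratios were 123.5 (33.8 to 1026) and 89.75 (24.4 to 747.7) for UPK3B and 1012 (279.8 to 8365) and 1026 (283.6 to 8479) for ELF3, each over 2 fragments in the library labelled 5637 sh-NC. For GATA3 they were 11.9 (9.20 to 15.6) and 9.97 (7.69 to 13.1), and for FOXA1 14.1 (11.1 to 18.2) and 13.1 (10.3 to 16.9). The ratios for PPARG were 6.54 (5.88 to 7.29) and 6.61 (5.94 to 7.37), and those for KLF5 were 47.4 (40.5 to 55.8) and 69.1 (59.1 to 81.3). The values of these genes in 5637 sh-LNMAT1 set against UM-UC-3 with the same hairpin were 35.2 and 63.15 for KLF5, 14.2 and 20.6 for FOXA1, and 10.1 and 17.2 for GATA3. A change with the hairpin and a difference between the lines cannot be told apart in 5637.

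Pooled over both lines, with the cell line as a covariate, limma called 0 of 12717 genes (0%), while 811 had an unadjusted p under 0.05. KLF5 had a log2 difference of 2.74, ELF3 2.01, PPARG 1.99 (SE 0.50), FOXA1 1.51 and GATA3 1.24, each at an adjusted p of 0.569 from limma. PPARG and KLF5 were higher than sh-NC with each hairpin in each line, where 5637 uses the library labelled 5637 sh-NC. How many of all genes did so was not counted, so this is no result about these genes. In UM-UC-3 the difference of KLF5 stood at ranks 3276 and 4593 of 12025 with sh-LNMAT1#1 and sh-LNMAT1#2. The 2 comparisons of a line share their control, so they are not independent. For KLF5 in UM-UC-3 with sh-LNMAT1#2 the counting interval of the ratio, 0.914 to 1.41, held 1. Without the library labelled 5637 sh-NC, the difference was 1.48 for PPARG, 0.23 for KLF5, 0.14 for FOXA1, -0.02 for ELF3 and -0.09 for GATA3, with adjusted p of 0.834 to 1. Without UM-UC-3 sh-NC, when the library labelled 5637 sh-NC was the 1 control, all 5 factors were called, with 2114 genes higher and 1911 lower.

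The interaction of line and hairpin asks whether the difference from sh-NC was the same in both lines. Of 12717 genes 18.8% were called, 9.99% with a higher change in 5637 and 8.79% with a lower one. Its log2 difference was 5.03 for KLF5 (limma adjusted p 0.0037), 4.06 for ELF3 (0.00324), 2.74 for FOXA1 (0.00972) and 2.67 for GATA3 (0.0157). For PPARG it was 1.02 (adjusted p 0.454). These values too use the library labelled 5637 sh-NC as the control of 5637. Each control is 1 library, so the residual spread of this test comes only from the 2 hairpins of a line, and GATA3, FOXA1 and ELF3 passed the filter only through 5637 sh-LNMAT1.

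UPK3B shares part of its sequence with other genes, which limits its reading. Of its words of 50 bases, 9.39% occur in other genes, mostly in the pseudogene UPK3BP1, which had 0 fragments in 5 libraries and 1 in 5637 sh-LNMAT1#2. ELF3 shared 8.07%, UPK1B 2.47% and PPARG 0.0203%, and UPK1A, UPK2, UPK3A, GATA3, FOXA1 and KLF5 shared 0%. The related gene UPK3BL (ENSG00000267368), on chromosome 7 from 102637025 to 102642791, shared 98.1% of its words with other genes, so its reads are uncertain. UPK3B was not among those genes. It had 0 fragments in the 3 UM-UC-3 libraries, 231 in the library labelled 5637 sh-NC (7.67 FPKM) and 307 and 283 in 5637 with sh-LNMAT1#1 and sh-LNMAT1#2 (10.997 and 10.9 FPKM). By UPK3BL the library labelled 5637 sh-NC lay nearer to 5637 sh-LNMAT1, and by UPK3B within the range of UM-UC-3.

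**Figure D4:**
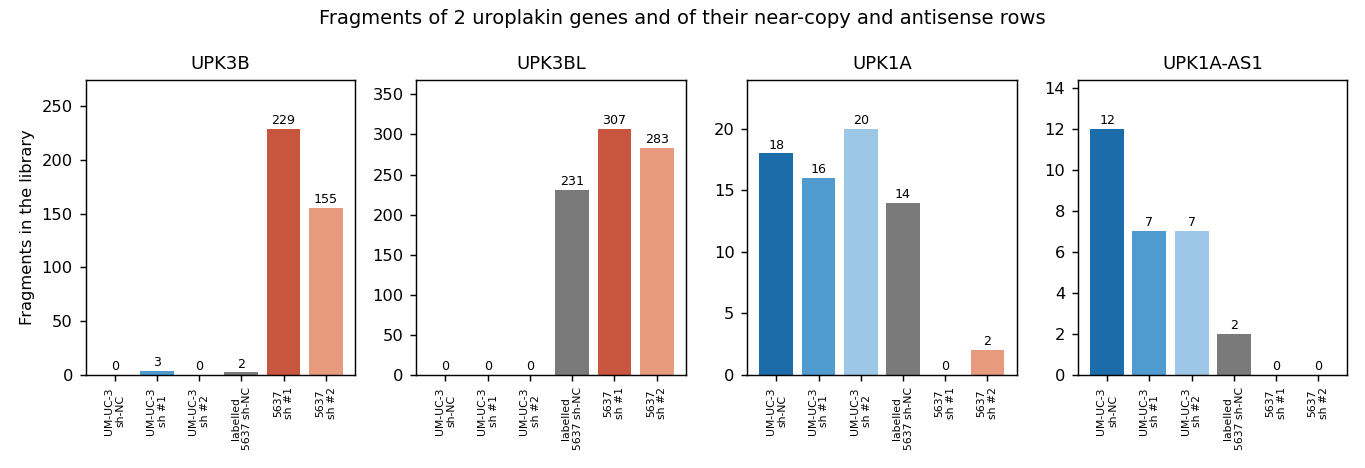
Fragments of UPK3B, its relative UPK3BL, UPK1A and the antisense gene UPK1A-AS1 in each library, as bars from 0 with the count above each. The library labelled 5637 sh-NC has 231 fragments of UPK3BL beside 2 of UPK3B, and both UPK1A and UPK1A-AS1 are at 0 to 2 fragments in 5637 sh-LNMAT1.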

How the data were processed

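RNA of 6 libraries was measured, 1 for each construct in each line. The values are FPKM, as the authors deposited them in a table of 50869 genes, 1 of which had no values. The submitters' processing notes name HISAT2 and hg38, and the counting program and annotation are not given in the sources used here. GENCODE release 29 held 50110 of the identifiers, 47522 at the same position.

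FPKM times the summed length of the distinct exons of GENCODE 29 gave whole fragments within 0.03 in at least 92.85% of values under 50 fragments in genes with several transcripts, and in at most 7.22% with merged exons. For GATA3 and PPARG the shortest length that gave whole fragments in all 6 libraries was used.

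R 4.3.3 with limma 3.58.1 (lmFit, eBayes with a trend) tested log2(FPKM + 0.5) of genes whose mean reached 1 FPKM, at a Benjamini-Hochberg adjusted p under 0.05, and Python 3.11.15 was used for the rest. No count-based test was run on FPKM. Promoters came from RefSeq, GRCh38.p14. The genes named were the 10 genes, LINC01296 and at most 4 genes a list, those with the largest difference between the lines, and for each factor at most 2 genes with the nearest profile. A few genes that the rule names are not reported here. KLF4, KRT20, PLIN2 and the markers near 0 were named after their values were seen. The members and the lists (111 genes in 10 lists) were chosen with earlier results of these data known. Alternatives were other scalings, pseudocounts, filters and thresholds, each hairpin alone, a hairpin block, and libraries left out.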

Additional observations from a re-analysis of the deposited data

Results flagged for a closer look

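The change with the hairpins against sh-NC was higher in 5637 than in UM-UC-3, by the limma interaction of line and hairpin, for GATA3 by a log2 difference of 2.67, for FOXA1 by 2.74, for ELF3 by 4.06 and for KLF5 by 5.03. All 4 use the library labelled 5637 sh-NC as the only control of 5637. With 1 control library a line, the test's spread comes only from the 2 hairpins of each line, and GATA3, FOXA1 and ELF3 passed the filter only through 5637 sh-LNMAT1. In the library labelled 5637 sh-NC, GATA3, ELF3 and KLF5 lay within the range of the UM-UC-3 libraries, and FOXA1, at 0.505 FPKM, lay just above their highest value of 0.501 FPKM. The line comparison, which leaves that library out, gave 2.68, 3.02, 4.04 and 5.06 for the same genes, so a response of 5637 and a difference between the lines cannot be told apart.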

How the results depend on the processing

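In the line comparison 6 genes were higher and 0 lower, beside 20.1% higher and 18.4% lower over all genes tested. UPK3B, GATA3, FOXA1 and ELF3 passed the filter only through 5637, which set their direction, so the counts do not measure the set. Where the mean had to reach 5 FPKM, 2 were higher, since the others were not tested. With all 6 libraries as labelled, 0 were higher. With no filter 1 was lower, UPK1A (log2 difference -0.74, limma adjusted p 0.034 over 35185 genes), UPK2 was also called (0.89, adjusted p 0.0339) and PPARG was not (adjusted p 0.0648). Leaving out 1 library gave 4 to 6 higher genes. With the library labelled 5637 sh-NC counted with UM-UC-3, a setting chosen after seeing the data, 5 were higher, since UPK3B then did not pass the filter. In the pooled comparison 0 genes were called, and 0 to 5 when 1 library was left out. There the log2 difference ran from -0.093 to 2.58 for GATA3 and from -0.018 to 4.04 for ELF3, both turning below 0 without the library labelled 5637 sh-NC. In the interaction 4 genes were called, 1 where the mean had to reach 5 FPKM, and GATA3 was lost with no filter (adjusted p 0.0717). The interaction was not refitted without the library labelled 5637 sh-NC, since 5637 then has no control.

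In UM-UC-3, 0 genes were at least 2-fold higher with both hairpins. The count was 1, PPARG, with a pseudocount of 0.1, with a 1.5-fold threshold and with sh-LNMAT1#1 alone. PPARG passed the filter in UM-UC-3 only through sh-LNMAT1#1. In 5637, 3 of the 6 were left where the mean had to reach 5 FPKM. All of the 6 but PPARG passed the main filter there only through the sh-LNMAT1 libraries, which set their direction. Over all genes, 1125 were higher and 1200 lower between the lines with at least 5 FPKM, 1 and 1 with all 6 libraries as labelled, and 754 and 438 without 5637 sh-LNMAT1#1, beside 2588 and 2361 in the main comparison. The interaction called 417 and 466 genes with at least 5 FPKM, beside 1270 and 1118.

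The hairpin number names the construct. With it as a replicate block the line comparison called the same 6 genes higher and 0 lower, and 2721 and 2529 over all genes. The deviations of the libraries with the same hairpin correlated at 0.028 across 12844 genes, with 2 pairs. Where a comparison counted any of the 10 genes, 25 of 29 such counts under the alternatives stayed within 1.5 times. At this depth UPK1B and UPK3A and, in UM-UC-3, UPK2, UPK3B and ELF3 had 5 fragments or fewer in every library.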

Other observations

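Profiles over the 6 libraries, centred on their mean on log2(FPKM + 0.5), were compared among 11534 genes by the root mean square difference, and the nearest genes are given as a description. For ELF3 they were INA, an intermediate filament gene of neurons (0.0567), and the ephrin receptor gene EPHA1 (0.0571). INA was at most 0.0128 FPKM in UM-UC-3 and the library labelled 5637 sh-NC, against 8.53 and 8.45 FPKM in 5637 with sh-LNMAT1#1 and sh-LNMAT1#2. For FOXA1 they were NT5DC2 (0.0565) and the phosphatase gene PTPRE (0.0831), for GATA3 PPP1R13L (0.101) and the kinesin gene KIF21B (0.102), and for KLF5 the basement membrane zone gene LAD1 (0.108) and the collagen chaperone gene SERPINH1 (0.125). PPARG had no neighbour as close, and the nearest was the NKG2D ligand gene ULBP2 (0.234). ULBP2 was 1.62, 11.7 and 2.36 FPKM in UM-UC-3 with the control, the first and the second hairpin, 8.29 FPKM in the library labelled 5637 sh-NC, then 31.25 and 40.1 FPKM in 5637 with sh-LNMAT1#1 and sh-LNMAT1#2. ULBP2 shared with PPARG the order of the hairpins in UM-UC-3 and a level in the library labelled 5637 sh-NC above that of UM-UC-3 sh-NC. Since most genes with a large difference between the lines have a profile of this kind, nearness over 6 libraries says nothing of shared control.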
